A study of Mus musculus with 9 samples.

Results

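TGF-beta ligands, their receptors and the proteins that hold the ligands latent were followed by RNA in the injured mouse left ventricle. The members are 10 genes taken by symbol, namely the ligands Tgfb1, Tgfb2 and Tgfb3, the receptors Tgfbr1, Tgfbr2 and Tgfbr3, and the latent TGF-beta binding proteins (LTBPs) Ltbp1, Ltbp2, Ltbp3 and Ltbp4. They are 10 of the 38293 genes in the count table, and all 10 were among the 14124 genes with enough counts to be tested. Total RNA was sequenced from male C57BL/6 mice aged 8 weeks in 3 groups of 3 libraries. The first group was taken 1 day after ischemia-reperfusion (I/R; mice 4, 5 and 6) and the second 14 days after I/R (libraries A, B and C, letters that serve as names only because their 3 columns share 1 name). The third group had sham surgery (mice 1, 2 and 3), and the time at which sham tissue was taken is not given in the labels. For I/R the left anterior descending (LAD) artery was tied off for 1 hour and then reopened, in animals with no stated genetic change or drug. The tissue was a whole piece of left ventricle, labelled as the infarct region for every group, so each value is a mixture of muscle, stromal and blood cells.

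TGF-beta is made as a precursor whose propeptide stays wrapped around the cleaved growth factor and keeps it inactive. An LTBP is usually joined to that propeptide and anchors the complex to fibrillin and fibronectin in the matrix, from which integrins, proteases and thrombospondin-1 can release the active ligand. Released ligand binds the type II receptor Tgfbr2, which activates the type I receptor Tgfbr1, and SMAD proteins then carry the signal to the nucleus, while the co-receptor Tgfbr3 (betaglycan) presents ligand, TGF-beta2 above all. In the heart the pathway is known for its part in ending inflammation after infarction, in turning fibroblasts into matrix-producing cells and in scar formation.

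Promoter sequence is shown for the 3 members that rose at 1 day by the largest factors among those with an entry in the RefSeq table used (build GRCm38.p6), which holds 8 of the 10 members and not Tgfb3 or Tgfbr3. Each line is read 5′ to 3′ on the gene's own strand and ends just before the start of the gene, and capitals mark a match to a GC box (GGGCGG, or CCGCCC on the other strand) or a TATA box (TATAAA). The Tgfb1 stretch is chr7:25686752-25687001 on the + strand, the Tgfb2 stretch is chr1:186705990-186706239 on the - strand, and the Ltbp2 stretch, kept to the 209 bases outside the annotated gene, is chr12:84876533-84876741 on the - strand.
Tgfb1: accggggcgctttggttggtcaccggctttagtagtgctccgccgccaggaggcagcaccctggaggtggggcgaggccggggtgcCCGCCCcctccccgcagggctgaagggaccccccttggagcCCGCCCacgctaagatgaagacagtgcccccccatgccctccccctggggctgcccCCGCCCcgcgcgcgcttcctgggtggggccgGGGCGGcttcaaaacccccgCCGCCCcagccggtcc
Tgfb2: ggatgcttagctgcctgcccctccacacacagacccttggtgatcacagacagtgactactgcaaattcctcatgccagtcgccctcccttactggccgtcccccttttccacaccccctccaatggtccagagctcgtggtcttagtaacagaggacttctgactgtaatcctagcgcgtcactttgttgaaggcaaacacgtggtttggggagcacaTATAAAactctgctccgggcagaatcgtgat
Ltbp2: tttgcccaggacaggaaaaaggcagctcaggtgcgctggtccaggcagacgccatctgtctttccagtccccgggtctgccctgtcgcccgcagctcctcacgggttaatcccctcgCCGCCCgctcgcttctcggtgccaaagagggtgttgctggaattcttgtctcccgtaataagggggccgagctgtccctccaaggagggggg
The Tgfb1 window held 5 GC boxes, a number that 1.93% of all 32851 promoter windows of 250 bases reach, and 75.2% of its bases were G or C, against a median of 52.4% over all windows. The Tgfb2 window held no GC box and had a TATA box from -31 to -26 relative to the start site, a match found in 12.4% of windows. The Ltbp2 stretch held a GC box, a match found in 32.7% of windows, and its full window a second outside the letters shown. The box shown ran from -133 to -128, counted from the RefSeq start site at 84876491. That site lies inside the annotated gene, whose edge is at 84876532, so these positions are not counted from the end of the line. Neither an AP-1 site (TGANTCA, 6.75% of windows), a CRE (TGACGTCA, 1.55%) nor a SMAD palindrome (GTCTAGAC, 0.167%) was matched on either strand in these 3 windows, and among the members with an entry the CRE letters stood in the Ltbp1 window, from -73 to -66.

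Library totals ran from 20215781 to 36816818 counts. Leaving ribosomal RNA genes aside, they ran between 7.22M and 15.97M. Genes of the mitochondrial genome took 52.0% to 63.3% of counts at 1 day, 65.0% to 68.8% at 14 days and 65.0% to 71.8% in sham. A refit without mitochondrial and rRNA genes gave the same numbers of members called as the main fit. These were 5 higher and 2 lower at 1 day against sham, 6 and 0 at 14 days against sham, and 6 and 2 between the times. Beyond that refit, the part of this difference in the results was not tested. Mouse 6 lay apart from the other 1-day mice on the first principal component, at 29.1 against 65.0 and 64.4, with the other 6 libraries between -33.1 and -14.6. It had the lowest neutrophil marker sum of its group (16.3 CPM, read counts per 1M of scaled library size, against 49.2 and 54.2 CPM) and the highest cardiomyocyte marker sum (50864 CPM against 35474 and 33633). Among the 14-day libraries, A had the lowest and C the highest sums for resting fibroblast, activated fibroblast and macrophage markers. The 8 cardiomyocyte markers, none of them at 0 in any group, summed to between 33633 and 50864 CPM at 1 day, 48461 to 63081 CPM at 14 days and 62581 to 69173 CPM in sham.

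All 3 ligand genes rose at 1 day after I/R, and Tgfb2 rose the most. The smallest rise, that of Tgfb3, lost its call in 10 of 18 alternative settings. By 14 days Tgfb1 overlapped sham, Tgfb2 was lower than at 1 day but still above sham, and Tgfb3 was at its highest. Libraries were scaled by trimmed means, and fold changes are on the log2 scale from edgeR's quasi-likelihood fit. Each SE was worked back from the F statistic of that test. The 95% intervals are a normal approximation from this SE and are narrower than ones matched to the test. A call means a Benjamini-Hochberg adjusted p under 0.05 over all 14124 genes. At 1 day 7 of the 10 members were called against sham, 5 higher and 2 lower, where 54.2% of all tested genes were called (29.4% higher and 24.8% lower). The members' median log2 fold change was 0.47, against 0.04 over all genes. At 14 days 6 of 10 were called against sham, all of them higher, where 14.4% of all tested genes were called (8.75% higher and 5.64% lower), and the median was 0.78 against 0.01. Between the times 8 of 10 were called, 6 higher and 2 lower at 14 days than at 1 day, where 51.9% of all tested genes were called (25.1% higher, 26.8% lower), with a median of 0.52 against 0.00. The libraries of the 2 groups did not overlap for 8 of 10 members at 1 day against sham (63.2% of all tested genes), for 6 at 14 days against sham (39.4%) and for 7 between the times (56.3%). The 3 comparisons share libraries, so the counts are not independent of each other. The members were chosen with earlier results of these data known, so the shares over all genes are given for scale only.

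**Figure D1:**
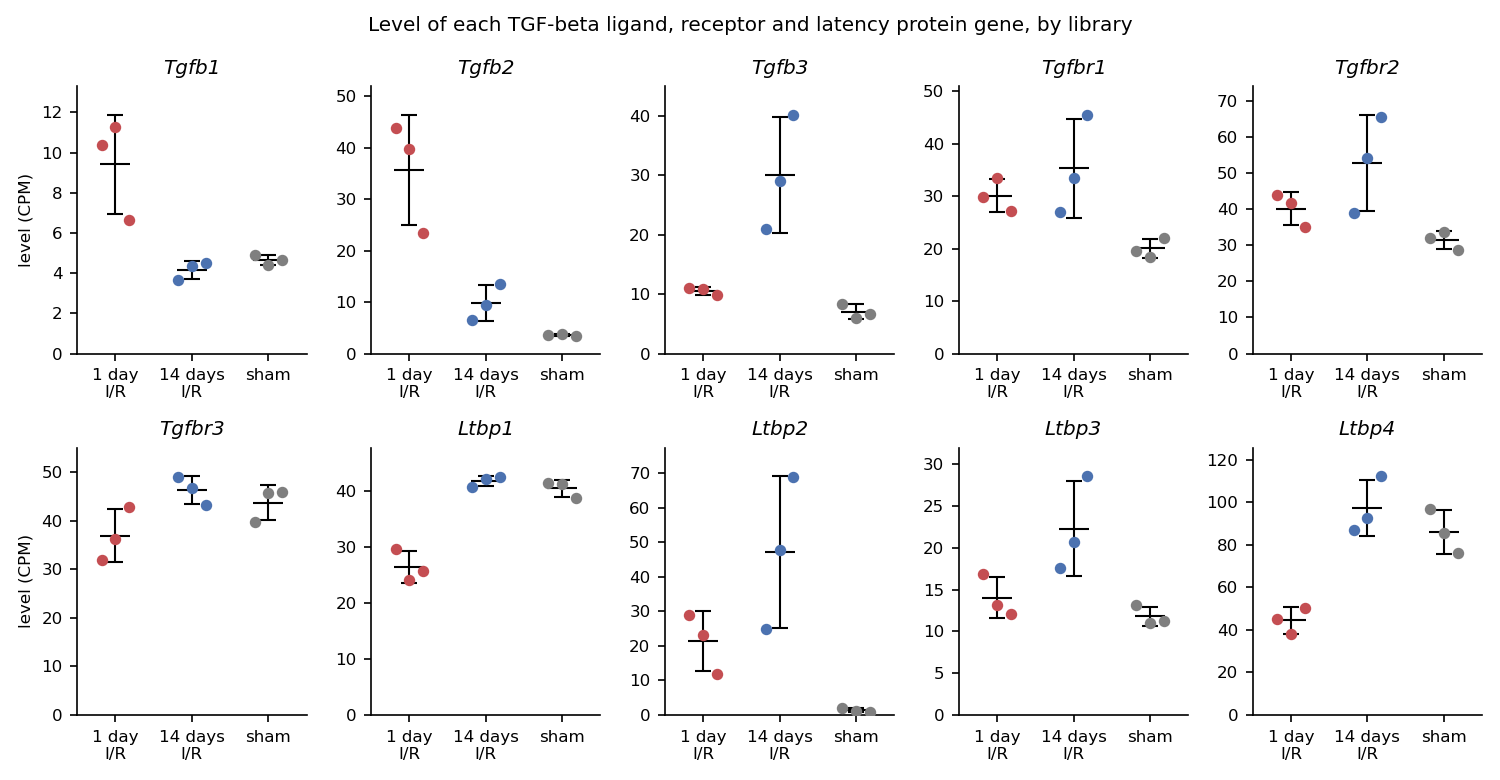
Level of each member in every library (CPM, y axes from 0), with 1 day, 14 days and sham along the x axes. Each point is 1 library, long lines are group means and error bars the SD (n = 3). Tgfb2 is highest at 1 day (23.4 to 43.7 CPM), Tgfb3 and Ltbp2 at 14 days (20.9 to 40.2 and 24.9 to 68.8 CPM), and Ltbp4 is lowest at 1 day (38.0 to 50.3 CPM).

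Tgfb2 (ENSMUSG00000039239, chromosome 1, 186622792 to 186705989 on the - strand, GRCm38) encodes the isoform that binds its receptors poorly without betaglycan. It had 43.7, 39.8 and 23.4 CPM in mice 4, 5 and 6 at 1 day, 6.54, 9.47 and 13.5 CPM in libraries A, B and C at 14 days, and 3.68, 3.77 and 3.45 CPM in sham mice 1, 2 and 3. All 3 groups were separate from each other, with mouse 6 the lowest at 1 day. Tgfb2 rose by 3.29 at 1 day against sham (SE 0.31, adjusted p = 6.10e-05), which is 9.78-fold, and by 3.51 (SE 0.25) without mouse 6. At 14 days it was 1.42 above sham (SE 0.31, adjusted p = 0.0178) and 1.87 below 1 day (log2 fold -1.87, SE 0.27, adjusted p = 5.44e-04). The call at 14 days against sham ended in 5 of 18 alternative settings, with log2 folds of 1.39 to 1.45 and adjusted p of 0.0527 to 0.0758. These were the fit with no filter and those without sham mouse 1, 2 or 3 or without library B.

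Tgfb1 (ENSMUSG00000002603, chromosome 7, 25687002 to 25705077, + strand) encodes the isoform that leukocytes and platelets carry in large amounts. It had 10.4, 11.3 and 6.63 CPM in mice 4, 5 and 6 at 1 day, 3.64, 4.34 and 4.5 CPM in libraries A, B and C at 14 days, and 4.90, 4.41 and 4.66 CPM in sham mice 1, 2 and 3. The 1-day mice were all above the other libraries, and 14 days and sham overlapped. Tgfb1 rose by 1.03 at 1 day against sham (SE 0.18, adjusted p = 7.90e-04), or 2.04-fold, and by 1.21 (SE 0.13) without mouse 6. At 14 days it was 1.19 lower than at 1 day (log2 fold -1.19, SE 0.18, adjusted p = 3.41e-04), and against sham the log2 fold was -0.16, with a 95% interval from -0.54 to 0.21 (adjusted p = 0.606).

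Tgfb3 (ENSMUSG00000021253, chromosome 12, 86056745 to 86079041, - strand) encodes the third isoform, best known from palate and lung development. It had 11.1, 10.8 and 9.81 CPM in mice 4, 5 and 6 at 1 day, 20.9, 29.0 and 40.2 CPM in libraries A, B and C at 14 days, and 8.42, 6.00 and 6.58 CPM in sham mice 1, 2 and 3. The groups did not overlap, and library C was the highest. Tgfb3 rose by 2.10 at 14 days against sham (SE 0.22, adjusted p = 0.00151), which is 4.29-fold, and by 1.5 against 1 day (SE 0.21, adjusted p = 3.24e-04). At 1 day it was 0.60 above sham (SE 0.22, adjusted p = 0.0428), a call that ended in 10 of 18 alternatives with log2 folds of 0.48 to 0.65 and adjusted p of 0.0510 to 0.150. These included the fits without sham mouse 2 or 3, without mouse 4, 5 or 6 and without library B. Of the Tgfb3 exons 12.4% overlap genes annotated on the other strand, and the strand setting of the counting is not given, so reads of the 2 strands cannot be told apart.

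The rise of Tgfb1 and Tgfb2 at 1 day came with higher neutrophil and monocyte markers. The 5 neutrophil markers that could be tested, of 7 listed, were all called higher, and the list summed to 16.3 to 54.2 CPM at 1 day, 1.56 to 2.90 CPM at 14 days and 1.26 to 4.03 CPM in sham, with Ly6g at 0 in every group. All 6 monocyte markers were called higher at 1 day, with sums of 321 to 420 CPM at 1 day, 168 to 437 CPM at 14 days and 66.1 to 127 CPM in sham. Most of the sum was on average Fn1, which also stands in the list of genes that store and activate TGF-beta (249 CPM at 1 day, 210 CPM at 14 days and 55.9 CPM in sham), and Vcan (90.5, 77.5 and 27.8 CPM in the same groups). Ccr2 averaged 33.0, 11.7 and 2.81 CPM, and Chil3 10.2, 0.0486 and 0.143 CPM. Platelet markers summed to 9.59 to 13.4 CPM at 1 day, 4.40 to 9.20 CPM at 14 days and 5.65 to 11.2 CPM in sham, with 1 of 3 tested called higher at 1 day. Red blood cell markers summed to 51.7 to 73.4, 99.3 to 120 and 93.4 to 154 CPM, with all 5 called lower at 1 day. Epicardial and mesothelial markers summed to 23.4 to 38.8, 6.79 to 8.42 and 6.77 to 11.4 CPM. Of the 4 tested, Aldh1a2 was called higher at 1 day (25.5 CPM, against 2.51 CPM in sham) and Wt1 lower (log2 fold -1.09, adjusted p = 0.00146). Within the 1-day group the library with the lowest Tgfb1 and Tgfb2 was the library with the lowest neutrophil sum, mouse 6. Mouse 6 was also lowest for Tgfb3, Tgfbr1, Tgfbr2, Ltbp2 and Ltbp3, though not for Tgfbr3, Ltbp1 or Ltbp4. Its monocyte, macrophage, activated fibroblast and platelet sums were the lowest of the group as well, so the match is not particular to these genes and markers. The rise of Tgfb3 at 14 days came with higher fibroblast markers, of which 6 of 8 resting and 7 of 8 activated ones were called higher against sham. Resting fibroblast sums were 405 to 459 CPM at 1 day, 1244 to 2280 CPM at 14 days and 743 to 863 CPM in sham, and activated fibroblast sums were 173 to 256, 440 to 1296 and 109 to 157 CPM in the same groups. Library A was lowest and library C highest for both sums, as for Tgfb3. This order was not particular to them. It also held for the macrophage and monocyte sums and for every other member except Tgfbr3. Tgfbr3 ran the other way, with 49.0, 46.7 and 43.2 CPM in libraries A, B and C. Macrophage markers summed to 241 to 269, 239 to 447 and 159 to 176 CPM, with 3 of 8 called higher at 1 day and all 8 at 14 days. The part of cell composition in these results was not tested, and in whole tissue fewer cells of a type and less RNA per cell cannot be told apart.

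**Figure D2:**
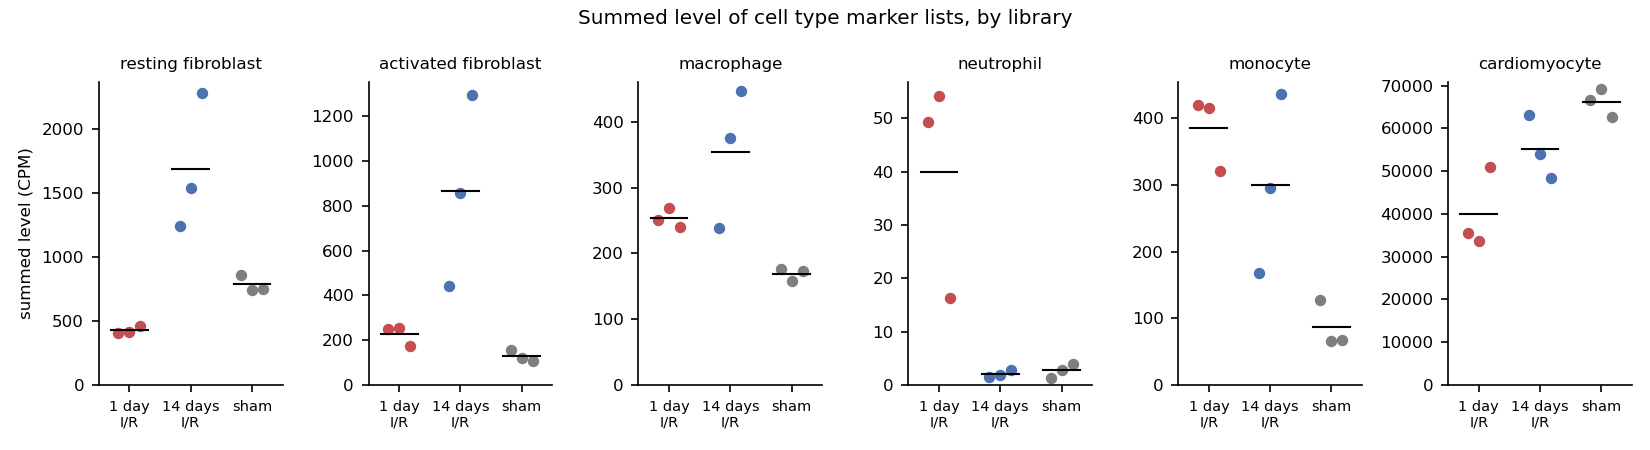
Summed CPM of 6 cell type marker lists in every library (y axes from 0), with 1 day, 14 days and sham along the x axes, each point 1 library and the line the group mean. Neutrophil markers are high at 1 day (16.3 to 54.2 CPM) and activated fibroblast markers at 14 days (440 to 1296 CPM).

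The make-up of the ligand pool was compared per length of exon, as CPM per kilobase. Summed ligand RNA was 11.2 ± 2.52 CPM per kilobase at 1 day, 11.4 ± 3.56 at 14 days and 3.62 ± 0.419 in sham (SD, n = 3 per group), so the 2 injured groups overlapped in the sum and both lay above sham. The sum was made up differently. Tgfb2 held 54.4% ± 4.94 of it at 1 day, 14.8% ± 0.694 at 14 days and 17.5% ± 2.12 in sham. Tgfb3 held 28.9% ± 5.40 at 1 day, 77.7% ± 0.865 at 14 days and 56.9% ± 3.57 in sham, and was thus the most abundant ligand per length in sham and at 14 days but not at 1 day. Tgfb1 held 16.7% ± 1.30 at 1 day, 7.55% ± 1.55 at 14 days and 25.6% ± 1.67 in sham. These lengths take all annotated exons together, 5042 bases for Tgfb1, whose longest transcript has 2573. For Tgfb3 both are 3383 bases. The share of Tgfb1 would be larger with the longest transcript, and the order of Tgfb1 and Tgfb3 at 1 day is not settled by these values. In each of the 9 comparisons of a ligand's share between groups the 2 groups did not overlap. The two-sided exact permutation p was 0.1 in each, the smallest that 3 against 3 can give, so no share difference can pass 0.05 (adjusted p = 0.1 over the 9). For Tgfb2 at 14 days against sham the difference of -2.73 percentage points became -1.8 with plain counts (two-sided exact permutation p = 0.4) and -0.28 with the length of the longest transcript (p = 0.9), and the groups then overlapped.

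**Figure D3:**
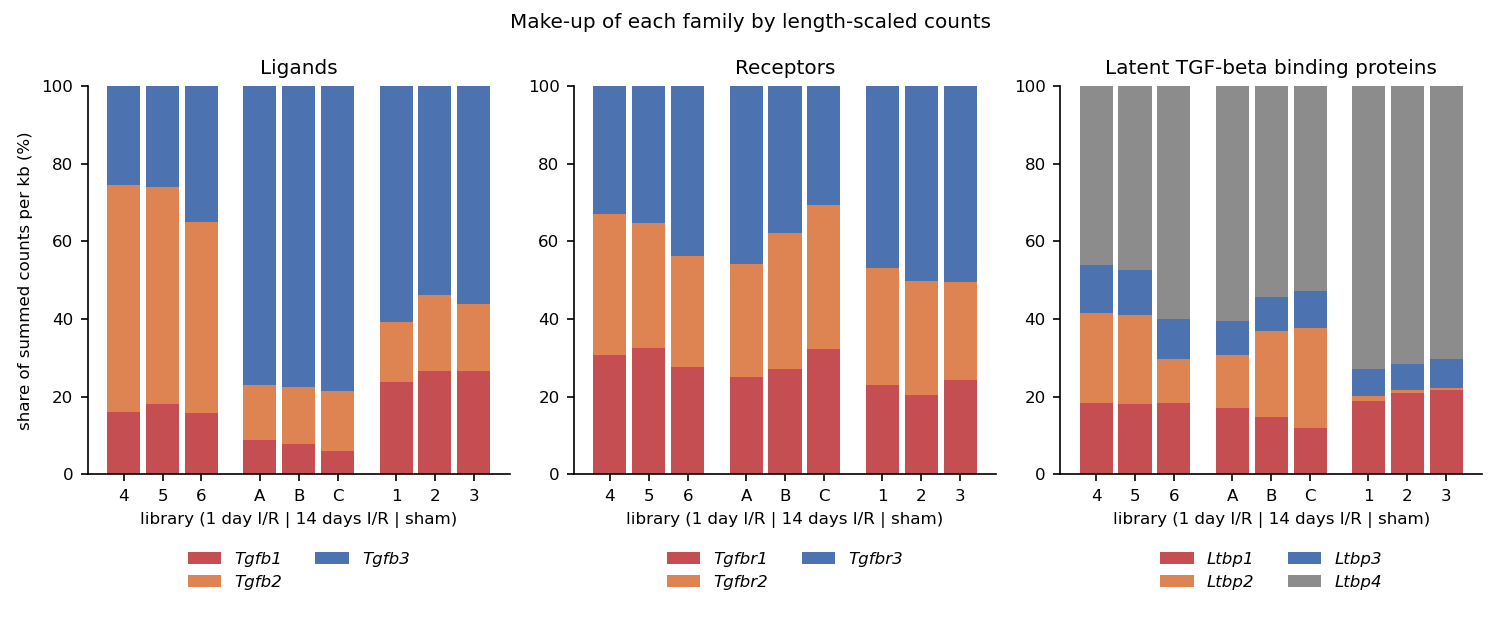
Share of each ligand, receptor and LTBP in the summed level of its family (percent of length-scaled counts, y axis), with 1 stacked bar per library, ordered 1 day, 14 days and sham along the x axis. Tgfb2 makes up on average 54.4% of ligand RNA at 1 day, Tgfb3 77.7% at 14 days, and Ltbp2 under 1% of LTBP RNA in sham (0.923%).

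The receptors' log2 folds against sham lay between -0.25 and 0.82. Tgfbr1 rose at both times, Tgfbr2 at 14 days, and Tgfbr3 was called at neither. Tgfbr1 (ENSMUSG00000007613, chromosome 4, 47353222 to 47414931, + strand), the type I kinase that phosphorylates SMADs, had 29.8, 33.4 and 27.1 CPM in mice 4, 5 and 6 at 1 day, 26.9, 33.5 and 45.5 CPM in libraries A, B and C at 14 days, and 19.6, 18.5 and 22.0 CPM in sham mice 1, 2 and 3. Both injured groups lay above sham and overlapped each other. It was 0.59 above sham at 1 day (SE 0.17, adjusted p = 0.0121) and 0.82 above sham at 14 days (SE 0.17, adjusted p = 0.0116), with 0.23 between the times (95% interval from -0.09 to 0.55, adjusted p = 0.265). Without sham mouse 2 neither difference from sham was called (0.53, adjusted p = 0.0531 at 1 day, and 0.76, adjusted p = 0.0651 at 14 days). Without library A the difference between the times was called (0.39, adjusted p = 0.0341).

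Tgfbr2 (ENSMUSG00000032440, chromosome 9, 116084293 to 116175360, - strand), the ligand-binding type II kinase, had 43.8, 41.5 and 35.0 CPM in mice 4, 5 and 6 at 1 day, 39.0, 54.1 and 65.4 CPM in libraries A, B and C at 14 days, and 31.9, 33.6 and 28.8 CPM in sham mice 1, 2 and 3. It rose by 0.75 at 14 days against sham (SE 0.17, adjusted p = 0.0150), a call that ended without sham mouse 1, 2 or 3 or library B (log2 folds 0.69 to 0.79, adjusted p of 0.0521 to 0.0592). At 1 day every mouse lay above every sham mouse, but the log2 fold of 0.35 (SE 0.17, 95% interval from 0.03 to 0.68) was not called (adjusted p = 0.0933). That interval, a normal approximation, excludes no change, but the quasi-likelihood test itself, with an unadjusted p of 0.0567, does not. Tgfbr2 at 1 day was called in 3 alternatives, 1 of them without library A (adjusted p of 0.00754 to 0.0277).

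Tgfbr3 (ENSMUSG00000029287, chromosome 5, 107106570 to 107289629, - strand), betaglycan, ran from 31.8 to 42.7 CPM at 1 day, 43.2 to 49.0 CPM at 14 days and 39.6 to 45.9 CPM in sham. Against sham it was not called at 1 day (log2 fold -0.25, SE 0.11, adjusted p = 0.0880) or at 14 days (0.08, SE 0.11, adjusted p = 0.672). It was lower at 1 day without mouse 6 (log2 fold -0.37, adjusted p = 0.00614), and higher with total count scaling (0.22, adjusted p = 0.239), which also shifts the median gene. Between the times it was 0.33 higher at 14 days (SE 0.11, adjusted p = 0.0304), a call that ended in 6 alternatives. These were the 2 groups alone and the fits without mouse 4 or 5 or library A or B (0.24 to 0.35, adjusted p of 0.0608 to 0.125), and total count scaling (-0.04, adjusted p = 0.858). In the summed receptor RNA the share of Tgfbr3 was 37.3% ± 5.67 at 1 day, 38.1% ± 7.56 at 14 days and 49.1% ± 2.06 in sham, with no overlap between either injured group and sham (two-sided exact permutation p = 0.1, adjusted p = 0.225).

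The LTBPs moved in different directions. Ltbp2 rose more than any other member at both times, Ltbp4 and Ltbp1 were lower at 1 day, and Ltbp3 rose at 14 days. Ltbp2 (ENSMUSG00000002020, chromosome 12, 84783212 to 84876532, - strand) encodes a matrix protein that, unlike the other members of the family, does not bind latent TGF-beta. It had 28.9, 23.3 and 12.0 CPM in mice 4, 5 and 6 at 1 day, 24.9, 47.8 and 68.8 CPM in libraries A, B and C at 14 days, and 2.09, 1.25 and 0.958 CPM in sham mice 1, 2 and 3, where the 3 libraries together held 102 counts. The injured groups overlapped each other and lay well above sham. Ltbp2 rose by 3.87 at 1 day against sham (SE 0.52, adjusted p = 3.87e-04), and by 4.15 (SE 0.57) without mouse 6. At 14 days it rose by 5.0 (SE 0.52, adjusted p = 0.00250), which is 32.0-fold. Between the times it was 1.13 higher at 14 days (SE 0.39, adjusted p = 0.0380), a call that ended in 6 alternatives (0.74 to 1.18, adjusted p of 0.0724 to 0.325). These were total count scaling, no filter and the fits without mouse 5, mouse 6, library B or library C. Without mouse 6 the value was 0.85 (adjusted p = 0.148). Of the Ltbp2 exons 9.34% overlap D030025P21Rik on the other strand, which itself had 15 counts over the 9 libraries against 6264 for Ltbp2.

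Ltbp4 (ENSMUSG00000040488, chromosome 7, 27305136 to 27337692, - strand), which binds TGF-beta1 and helps elastic fibres to assemble, had 45.2, 38.0 and 50.3 CPM in mice 4, 5 and 6 at 1 day, 86.8, 92.7 and 112 CPM in libraries A, B and C at 14 days, and 96.9, 85.5 and 76.1 CPM in sham mice 1, 2 and 3. The 1-day mice were below every other library, and 14 days overlapped sham. Ltbp4 fell by 0.95 at 1 day against sham (SE 0.14, adjusted p = 2.75e-04, and log2 fold -0.48 with adjusted p = 0.0494 under total count scaling) and was 1.13 higher at 14 days than at 1 day (SE 0.14, adjusted p = 1.09e-04). At 14 days it differed from sham by 0.17 (95% interval from -0.10 to 0.44, adjusted p = 0.427).

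Ltbp1 (ENSMUSG00000001870, chromosome 17, 75005568 to 75392512, + strand), the first described carrier of latent TGF-beta1, had 29.6, 24.1 and 25.6 CPM in mice 4, 5 and 6 at 1 day, 40.7, 42.1 and 42.4 CPM in libraries A, B and C at 14 days, and 41.4, 41.2 and 38.7 CPM in sham mice 1, 2 and 3. Ltbp1 fell by 0.61 at 1 day against sham (SE 0.09, adjusted p = 3.04e-04) and was 0.65 higher at 14 days than at 1 day (SE 0.09, adjusted p = 2.04e-04). Both calls ended with total count scaling, with -0.12 (adjusted p = 0.618) and 0.26 (adjusted p = 0.277). At 14 days it differed from sham by 0.04 (95% interval from -0.13 to 0.22, adjusted p = 0.784).

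Ltbp3 (ENSMUSG00000024940, chromosome 19, 5740904 to 5758532, + strand), which aids secretion of latent TGF-beta and is known for its part in bone and teeth, ran from 12.1 to 16.8 CPM at 1 day, 17.6 to 28.6 CPM at 14 days and 11 to 13.1 CPM in sham. It rose by 0.91 at 14 days against sham (SE 0.18, adjusted p = 0.0103) and by 0.65 against 1 day (SE 0.18, adjusted p = 0.00991), while at 1 day the difference from sham was 0.26 (95% interval from -0.10 to 0.62, adjusted p = 0.249). The call against sham ended without sham mouse 2 (0.86, adjusted p = 0.0586), and the call against 1 day with total count scaling (0.27, adjusted p = 0.411), under which Ltbp3 was called at 1 day against sham (0.76, adjusted p = 0.0225).

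The lower Ltbp1 and Ltbp4 at 1 day came with lower sums of resting fibroblast markers (405 to 459 CPM at 1 day against 743 to 863 CPM in sham, with 4 of 8 markers called lower and 1 higher). Most of the sham sum was Gsn (117 CPM at 1 day and 404 CPM in sham) and Dcn (101 and 226 CPM). The marker called higher was Pdgfra (66.1 and 36.2 CPM), and Col1a1 (106 and 58.3 CPM) was not called. Smooth muscle and pericyte markers summed to 328 to 412 CPM at 1 day and 503 to 519 CPM in sham, with 3 of 8 called lower and 4 higher. That sum follows its largest gene, Rgs5 (179 CPM at 1 day and 364 CPM in sham). Cspg4 (58.8 and 21.2 CPM) and Pdgfrb (61.7 and 47.7 CPM) were among those called higher, so the list had no common direction. Blood endothelial markers summed to 415 to 431 CPM at 1 day and 547 to 580 CPM in sham, with 3 of 7 called lower. None of these markers was at 0 in any group, and their part in the result was not tested. In the summed LTBP RNA the share of Ltbp2 was 19.2% ± 6.80 at 1 day, 20.5% ± 6.09 at 14 days and 0.923% ± 0.285 in sham, and that of Ltbp4 was 51.1% ± 7.63, 55.9% ± 4.03 and 71.6% ± 1.30 in the same groups. For both genes the shares in either injured group did not overlap sham (two-sided exact permutation p = 0.1, adjusted p = 0.12 over 12 comparisons). The summed LTBP RNA was 13.5 ± 1.44 CPM per kilobase at 1 day, 27.2 ± 5.38 at 14 days and 18.6 ± 1.91 in sham.

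**Figure D4:**
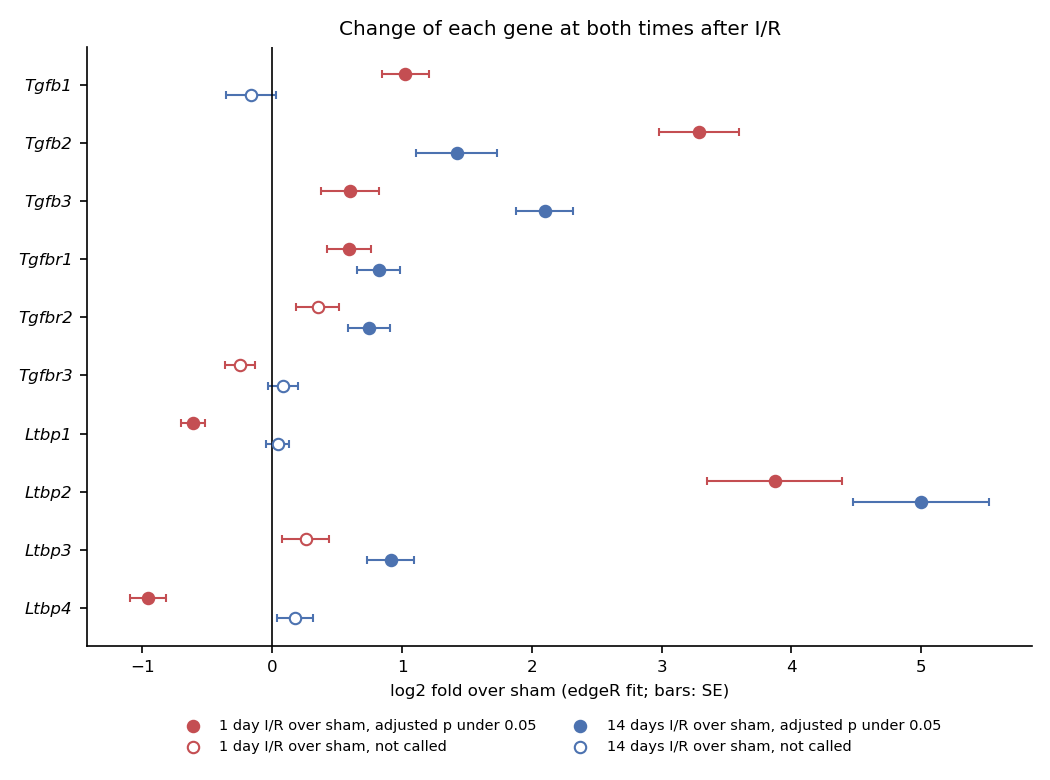
Log2 fold change of each member over sham (x axis, bars are the SE of the fit) at 1 day, drawn above, and at 14 days, drawn below, with filled points for calls and open points for the rest. Ltbp2 has the largest values against sham, 3.87 at 1 day and 5.0 at 14 days, and Ltbp4 the lowest at 1 day, -0.95.

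The order of the members per length of exon changed between groups. Lengths take all annotated exons together, and the order was not repeated with the longest transcript. That is shorter for Tgfb1 (2573 against 5042 bases) and Ltbp1 (6671 against 10691), among others. Ltbp4 was first in every group, at 6.88 CPM per kilobase at 1 day, 15.1 at 14 days and 13.3 in sham. It overlapped the next gene at 1 day, Tgfb2 at 6.15 CPM per kilobase, whereas it was separate from Tgfb3 at 14 days (8.89) and from Tgfbr3 in sham (6.68). At 1 day the 5 most abundant members, Ltbp4, Tgfb2, Tgfbr3, Tgfbr2 and Tgfbr1 in falling order, each overlapped the next. In sham the lower end ran Tgfb1 (0.924), Tgfb2 (0.628) and Ltbp2 (0.175 CPM per kilobase), each separate from the one above. At 14 days Tgfb1 was the lowest member (0.824 CPM per kilobase) and Ltbp2 stood in the middle (5.76).

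Of 20 genes that store and activate TGF-beta 14 were called higher and 2 lower at 1 day against sham, where 29.4% of all tested genes were higher and 24.8% lower, with a median log2 fold of 1.00 against 0.04 over all genes. Fbn1, the fibrillin to which LTBPs bind, averaged 249 ± 51.0 CPM at 1 day and 122 ± 15.3 CPM in sham (log2 fold 1.03, SE 0.25, adjusted p = 0.00531). Itgb1, the beta1 integrin chain, averaged 369 ± 46.3 CPM at 1 day and 188 ± 7.55 CPM in sham (0.97, SE 0.13, adjusted p = 1.71e-04). The 2 that fell were Itgb6, partner of the alpha-v chain in a TGF-beta-activating integrin (13.6 ± 1.35 CPM at 1 day and 31.2 ± 2.27 CPM in sham, log2 fold -1.20, adjusted p = 1.47e-04), and the gelatinase gene Mmp2 (12.5 ± 2.72 and 28.3 ± 4.55 CPM, log2 fold -1.19, adjusted p = 0.00704, and -0.72 with adjusted p = 0.0599 under total count scaling). The cell-surface carriers of latent TGF-beta Lrrc32 (log2 fold 1.27, adjusted p = 3.76e-04) and Nrros (0.84, adjusted p = 0.00317), named after their values were seen, rose as well. SDs here and below are over n = 3 libraries per group. This list and those below were chosen with earlier results of these data known. The shares over all genes are therefore given for scale and are no test of the lists.

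At 14 days 9 of the 20 were higher and 2 lower against sham (median 0.59 against 0.01), where 8.75% of all tested genes were higher and 5.64% lower. Fbn1 averaged 350 ± 127 CPM at 14 days and 122 ± 15.3 CPM in sham (log2 fold 1.52, SE 0.25, adjusted p = 0.00544). Fn1, fibronectin, averaged 210 ± 98.8 CPM at 14 days and 55.9 ± 30.9 CPM in sham (1.91, SE 0.42, adjusted p = 0.0202). Furin, the protease that cuts the TGF-beta precursor, fell to 20.2 ± 1.91 CPM at 14 days, against 31.7 ± 2.78 CPM in sham (log2 fold -0.65, SE 0.10, adjusted p = 0.00341), and Itgb6 was -0.64 (adjusted p = 0.0194). At 1 day Furin had been called higher than sham, at 46.6 ± 1.92 CPM (0.56, adjusted p = 6.74e-04). The 14-day calls of Fn1, Itgb6 and Furin ended in 8, 4 and 1 of the 18 alternatives. For Fn1 these included leaving out sham mouse 2 or 3, mouse 6, or library B or C (adjusted p of 0.0523 to 0.103 over the 8), and for Itgb6 sham mouse 2 or 3 or library B (0.0637 to 0.0795 over the 4). Between the times 4 of the 20 were higher at 14 days and 9 lower (median -0.35 against 0.00), where 25.1% of all tested genes were higher and 26.8% lower. Mmp2 was higher, at 98.2 ± 38.5 CPM at 14 days and 12.5 ± 2.72 CPM at 1 day (2.98, SE 0.30, adjusted p = 8.34e-05), as was Itgb5, at 0.50 (adjusted p = 0.0114). Tgm2, a transglutaminase that links latent complexes to matrix, was lower (87.5 ± 8.62 CPM at 14 days and 428 ± 128 CPM at 1 day, log2 fold -2.29, adjusted p = 2.42e-05), as was Itgb1 (-0.74, adjusted p = 8.18e-04). Reads of Fbn1 and Tgm2 are uncertain, since 20.1% and 21.8% of their exons overlap other genes.

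Co-receptors and ligand traps, 10 genes, held 3 higher and 4 lower at 1 day against sham (median -0.14, and 0.35 with total count scaling). Of all tested genes 29.4% were higher and 24.8% lower there. Acvrl1, an alternative type I receptor, rose (0.48, SE 0.12, adjusted p = 0.00678), as did the small proteoglycan gene Bgn (0.68, SE 0.24, adjusted p = 0.0322), whose call ended in 6 alternatives, among them without sham mouse 1, 2 or 3 or mouse 4 or 5 (adjusted p of 0.0684 to 0.0975). Dcn, decorin, which can bind TGF-beta, fell to 101 ± 26.3 CPM at 1 day, against 226 ± 11.6 CPM in sham (log2 fold -1.17, SE 0.25, adjusted p = 0.00277), and Nrp1 fell by 0.42 (adjusted p = 0.00612, and 0.07 higher with total count scaling). At 14 days 4 were higher and 1 lower (median 0.59), where 8.75% of all tested genes were higher and 5.64% lower. Dcn averaged 630 ± 230 CPM at 14 days (1.48 above sham, adjusted p = 0.00597), Bgn 205 ± 76.1 CPM at 14 days and 65.9 ± 2.63 CPM in sham (1.64, adjusted p = 0.00381), and Fmod, fibromodulin, 11.8 ± 6.77 CPM at 14 days and 0.474 ± 0.195 CPM in sham (4.54, SE 0.66, adjusted p = 0.00503). Cd109, a TGF-beta co-receptor, rose by 1.25 (adjusted p = 0.00277), after 0.61 above sham at 1 day (adjusted p = 0.00955). Eng, endoglin, fell by 0.38 (adjusted p = 0.0194), a call that ended in 5 alternatives, among them without sham mouse 1 or 2 or library B or C (adjusted p of 0.0510 to 0.423). Between the times 6 were higher at 14 days and 1, Eng, lower (median 0.67), where 25.1% of all tested genes were higher and 26.8% lower. Dcn was at 2.65 (adjusted p = 4.33e-05) and Bgn at 0.96 (adjusted p = 0.00638). Dcn also stands in the list of resting fibroblast markers.

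The SMAD relay and its inhibitors, 15 genes, showed no common direction. At 1 day 6 were higher and 4 lower against sham (median 0.04), at 14 days 3 higher and 2 lower (median -0.10), and between the times 4 higher at 14 days and 3 lower (median -0.08). Of all tested genes 29.4% were higher and 24.8% lower at 1 day, 8.75% and 5.64% at 14 days, and 25.1% and 26.8% between the times. At 1 day the ubiquitin ligase gene Smurf2 (38.7 ± 2.62 CPM at 1 day and 29.7 ± 1.75 CPM in sham, 0.38, adjusted p = 0.00490) and the corepressor gene Ski (0.34, adjusted p = 0.0119) rose, while the phosphatase gene Ppm1a (log2 fold -0.34, adjusted p = 0.00960) and the deubiquitinase gene Usp15 (-0.24, adjusted p = 0.0316) fell. At 14 days Smad7, the inhibitory SMAD, fell to 5.42 ± 0.504 CPM, against 8.20 ± 0.442 CPM in sham (log2 fold -0.60, SE 0.11, adjusted p = 0.00802), and Smurf1 fell by 0.36 (adjusted p = 0.0186). Tgif1 (1.32, adjusted p = 0.0232), Pmepa1 (0.76, adjusted p = 0.0346) and Skil (0.57, adjusted p = 0.0472), which encode inhibitors of SMAD signalling, rose. At 1 day Tgif1 (1.08, adjusted p = 0.0178), Pmepa1 (0.92, adjusted p = 0.00368) and Smurf1 (0.27, adjusted p = 0.0196) had already been called higher than sham. Skil had not (0.04, adjusted p = 0.864). Against 1 day, Smurf1 (-0.63, adjusted p = 1.74e-04) and Ski (-0.47, adjusted p = 0.00217) were lower at 14 days, and Zfyve9, the SMAD anchor (0.29, adjusted p = 0.0128), and Ppm1a (0.25, adjusted p = 0.0404) were higher.

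Several of these SMAD calls were close to the threshold. At 14 days against sham the call of Skil ended in 13 of 18 alternatives (adjusted p of 0.0513 to 0.165), that of Pmepa1 in 7 (0.0523 to 0.133), that of Tgif1 in 6 (0.0511 to 0.119) and that of Smurf1 in 5 (0.0581 to 0.449), each of them among others without sham mouse 2 or 3 and without library B or C. The call of Usp15 ended in 7 alternatives, that of Ski at 1 day without sham mouse 3 or mouse 4 (0.0539 to 0.0759), and that of Ppm1a between the times in 10. For Usp15 these included each sham mouse and mice 4 and 5 left out in turn (0.0534 to 0.0944), and for Ppm1a each sham mouse, mouse 4, mouse 5, library A and library B (0.0563 to 0.142). With total count scaling the adjusted p was 0.244 for Usp15 and 0.528 for Ppm1a.

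Of 15 genes known to respond to TGF-beta 14 were tested (Il11 had too few counts). Like the other lists, this one was chosen with earlier results of these data known. At 1 day 8 were higher and 2 lower against sham (median 0.89), where 29.4% of all tested genes were higher and 24.8% lower. At 14 days 11 were higher and 2 lower (median 1.84), where 8.75% of all tested genes were higher and 5.64% lower. Between the times 4 were higher at 14 days and 5 lower (median 0.04), where 25.1% of all tested genes were higher and 26.8% lower. Ccn2, listed under its older symbol Ctgf and encoding a matricellular protein, averaged 286 ± 87.5 CPM at 1 day and 20.3 ± 7.10 CPM in sham (3.82, SE 0.38, adjusted p = 8.10e-05). At 14 days it was at 95.6 ± 37 CPM, below 1 day (log2 fold -1.58, adjusted p = 0.00424). Postn, periostin, averaged 497 ± 274 CPM at 14 days and 44.1 ± 24.6 CPM in sham (3.49, SE 0.54, adjusted p = 0.00588), and was 2.11 above 1 day (adjusted p = 0.00731). Col3a1, the collagen III chain, averaged 1521 ± 685 CPM at 14 days and 241 ± 127 CPM in sham (2.66, SE 0.42, adjusted p = 0.00544) and was 1.91 above 1 day (adjusted p = 0.00359).

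The 2 responsive genes that fell at both times were Acta2, smooth muscle actin, and Id1, a target of the related BMP branch. Acta2 averaged 32.3 ± 5.36 CPM at 1 day, 33.8 ± 4.79 CPM at 14 days and 49.8 ± 7.59 CPM in sham, with log2 folds of -0.63 at 1 day (adjusted p = 0.00429) and -0.56 at 14 days (adjusted p = 0.0286). Its 14-day call ended in 5 alternatives, among them without sham mouse 1 or 2 or library B or C (adjusted p of 0.0771 to 0.150). Id1 averaged 5.47 ± 0.354 CPM at 1 day, 5.23 ± 0.673 CPM at 14 days and 11 ± 0.411 CPM in sham, with log2 folds of -1.0 (adjusted p = 8.57e-05) and -1.07 (adjusted p = 0.00151). At 1 day Postn was at 1.39 (adjusted p = 0.0411), a call that ended in 8 alternatives, among them without sham mouse 2 or 3, mouse 4, 5 or 6, or library B (0.0516 to 0.140), and between the times its call ended without mouse 6 (1.90, adjusted p = 0.0578). Postn, Acta2 and Cilp also stand in the list of activated fibroblast markers and Col1a1 in that of resting ones, so these lists are not independent of the marker sums given above. With total count scaling the calls of Acta2 at 1 day (-0.16, adjusted p = 0.492), Smad7 and Furin at 14 days against sham (-0.50, adjusted p = 0.198, and -0.57, adjusted p = 0.0753), and Bgn, Itgb5 and Postn between the times (0.60, 0.14 and 1.74, adjusted p = 0.111, 0.592 and 0.0771) ended. For Ccn2, 23.2% of the exons overlap a gene on the other strand.

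**Figure D5:**
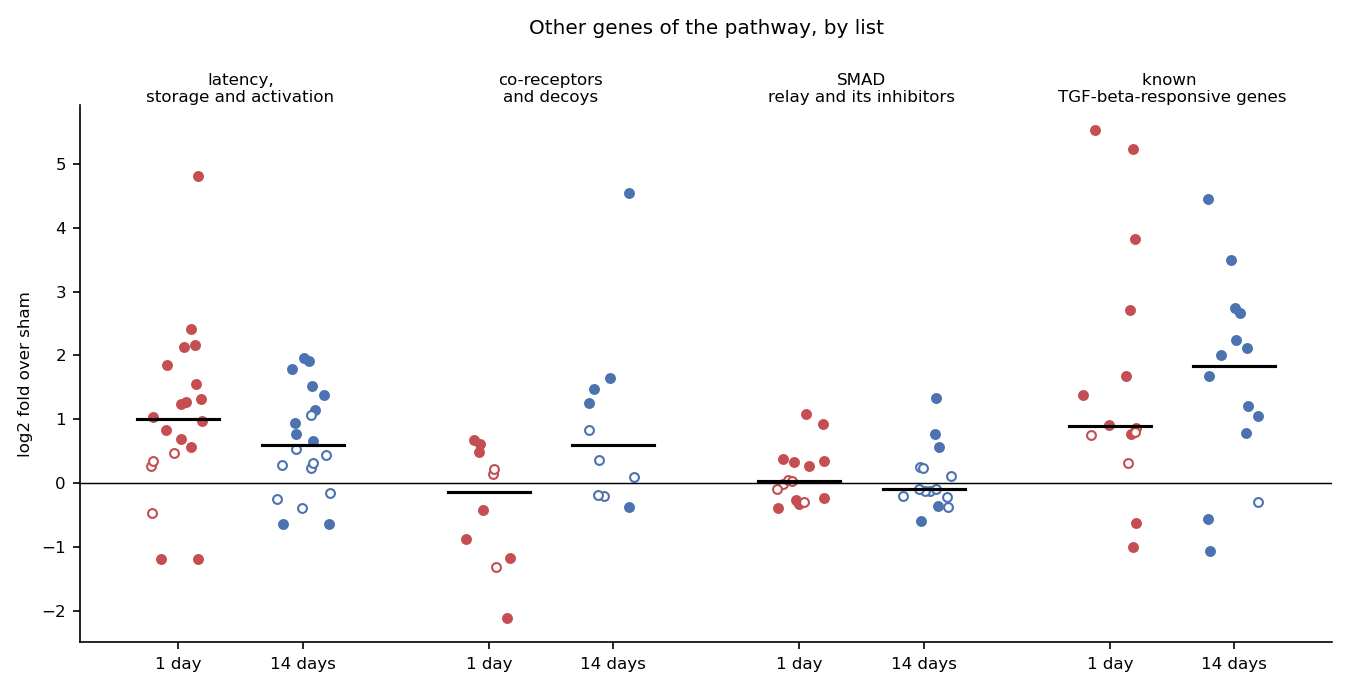
Log2 fold change over sham of every tested gene of the 4 pathway lists (y axis) at 1 day and at 14 days, each point 1 gene, filled where called, and the line the median. The lists were chosen with earlier results of these data known. The genes that store and activate TGF-beta are mostly above 0 at 1 day (14 of 20 called higher), the responsive genes at 14 days (11 of 14), and the median of the SMAD genes is near 0 (0.04 at 1 day and -0.10 at 14 days).

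The genes whose levels ran most alike with each ligand over the 9 libraries differed between ligands. For Tgfb1 these were Senp3, a SUMO protease gene, Zfhx3, a transcription factor gene, and Srpk1, a splicing kinase gene, with Pearson r of log2(CPM + 0.5) of 0.997, 0.992 and 0.991. For Tgfb2 they were Arpc1b, an actin branching complex subunit (0.996), Anxa2, an annexin (0.993), and Cyfip1, of the actin-regulating WAVE complex (0.993). For Tgfb3 they were the matrix genes Adamts2, which trims procollagen (0.990), Mfap5, a microfibril protein (0.988), and Fstl1, a secreted glycoprotein (0.987). These values are descriptions over 5519 ranked genes, and the 9 points share the 3 groups, the library scaling and the mixture of cells.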

How the data were processed

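The labels' protocols name TRIzol extraction and stranded, ribosome-depleted total RNA libraries, and the submitters' processing notes name STAR 2.7.1a and GRCm38 (mm10). The authors deposited raw whole-number counts for each gene, and every count column was used. No source used here gives the counting program, its annotation or its strand setting, so genes with shared exonic bases (5 of the 10 members) are uncertain. Of the 38293 genes 36345 were found in GENCODE M21 (GRCm38), the source of names, positions and exon lengths. Replicates differed by more than counting noise (chi-square per degree of freedom 7.42 to 97.3), so each library was 1 replicate. The sample titles name separate mice, but the 3 count columns of the 14-day group all carry the name of mouse 7. The p-values measure the spread between these 9 libraries.

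All 9 libraries entered 1 quasi-likelihood fit of edgeR 4.0.16 (R 4.3.3) with trimmed-mean scaling, robust dispersion and the default low-count filter. P-values were adjusted by Benjamini-Hochberg, with a threshold of 0.05. Family shares were tested by exact permutation, two-sided (scipy 1.17.1). The alternatives were DESeq2 1.42.0 (its size factors in edgeR, and its Wald test), limma-voom (limma 3.58.1), scaling by total count, by upper quartile or without mitochondrial and rRNA genes, no filter or 1 CPM in 3 libraries, the 2 groups alone, and each library left out. The test was also run on simulated data, and the outcome is not reported here. The members, gene lists and marker lists were chosen with earlier results of these data known. Named pathway genes are, for each list, comparison and direction, the 2 calls of highest mean CPM, and every call where a list had 5 or fewer. Some 1-day values outside this rule are given to complete a time course. A gene that this rule took is not reported here. For each ligand the 3 genes most correlated with it were named, at a mean of at least 10 CPM. Figures were drawn with matplotlib 3.10.9.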

Additional observations from a re-analysis of the deposited data

How the results depend on the processing

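Of 21 calls of members over the 3 comparisons, 10 held in each of the 18 alternatives: Tgfb1, Tgfb2, Ltbp2 and Ltbp4 at 1 day against sham, Tgfb3 and Ltbp2 at 14 days against sham, and Tgfb1, Tgfb2, Tgfb3 and Ltbp4 between the times. Of 49 calls of pathway genes that the naming rule took, 23 ended in at least 1 alternative. Genes called at 14 days against sham numbered 2033, and 832 with total count scaling, and 478 to 3221 with 1 library left out. Members called numbered 6 there, and 2 to 6 with 1 library left out (2 without sham mouse 2). Members called between the times numbered 8, and 4 with total count scaling. Total count scaling moved the median log2 fold of all genes by 0.48 at 1 day and -0.39 between the times, and the split of higher and lower calls to 6860 and 1057 at 1 day (4153 and 3496 before), 720 and 112 at 14 days (1236 and 797) and 1066 and 5469 between the times (3547 and 3788). It turned the sign between the times of Ppm1a (-0.13), Tgfbr1 (-0.13), Tgfbr3 (-0.0390) and Zfyve9 (-0.0819), and at 1 day of Nrp1 (0.0669), Ppm1a (0.14), Tgfbr3 (0.22) and Usp15 (0.23). With 1 library left out, the 14-day minus 1-day difference in share ran from -0.53 to 3.68 points for Tgfbr2 (main 1.36), -3.03 to 4.52 for Tgfbr3 (0.80) and -2.62 to 4.68 for Ltbp2 (1.31). The cause of these changes was not tested. No paired analysis was possible because the groups share no replicate numbers. With 3 libraries per group, a missing call does not show that a gene was unchanged, and low genes such as Ltbp2 in sham rest on few counts.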
